A study of Mus musculus with 4 samples.

Results

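Resident-like macrophage nuclei of the mouse heart were followed through 4 single-nucleus RNA libraries, one of Vegfa Q150X and one of wild-type (WT) hearts at 3 days after myocardial infarction (3dpMI), and one of each genotype without infarction (homeostasis). Q150X is a stop-gained allele of Vegfa, the gene of vascular endothelial growth factor A, made by CRISPR/Cas9 editing in mice as a counterpart of a human variant. It is carried in the germ line and so by every cell type. The library names mark the mutant hearts as "ho". The mice were adult; the labels do not state sex, strain or how many hearts entered a library. The members were chosen by measured values: a nucleus had to hold at least 500 unique molecular identifiers (UMIs, the count of captured RNA molecules), at least 300 genes and at most 10% mitochondrial UMIs, with less than 2% of its UMIs from the cardiomyocyte genes Ttn, Ryr2 and Myh6. It also had to show UMIs of at least 2 distinct genes among Cd163, Mrc1, F13a1, Lyve1, Siglec1 and Folr2, and more of these than of the repair macrophage genes (Gpnmb, Arg1, St18, Adam8, Lilrb4b), the monocyte genes (Ccr2, Klra2, Sirpb1c, Slfn4, Gpr141) and the endothelial and fibroblast genes (Pecam1, Cdh5, Ptprb, Pdgfra, Col3a1). This gave 1558 nuclei of the 28128 that passed the filters: 598 in the Q150X 3dpMI library, 530 in the WT 3dpMI library, 359 in the Q150X homeostasis library and 71 in the WT homeostasis library.

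Resident cardiac macrophages are seeded largely before birth and maintain themselves in the tissue. They clear dying cells and debris, take up haemoglobin-haptoglobin through Cd163 and glycoproteins through the mannose receptor Mrc1, and make growth factors. After infarction their number falls in the injured zone while blood monocytes enter and mature into inflammatory and then repair macrophages, so that for some days the heart holds cells of both origins that share many macrophage genes.

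Every group was 1 library, so no difference below has a replicate check and no test between conditions was possible. Each library enters 2 of the 4 comparisons, which are therefore not independent of one another. Intervals are 95% intervals (exact Poisson for levels, exact Clopper-Pearson for shares, conditional binomial for ratios of levels) and cover counting error only, not the variation between hearts. Levels are UMIs summed over the members of a library per 1000000 of their UMIs (CPM). Depth differed: members had a median of 2724.5 UMIs in the Q150X 3dpMI library, 2518 in the WT 3dpMI library, 841 in the Q150X homeostasis library and 698 in the WT homeostasis library, and 1983382, 1505965, 398392 and 58232 UMIs in all, in the same order. The floor for a gene with no UMI, set at 3 counts, was 51.5 CPM in WT homeostasis members but only 1.51 CPM in Q150X 3dpMI members. The exact upper bound for such a gene in WT homeostasis members was 63.3 CPM. For each pair of libraries, between 0.59% and 1.44% of a library's barcodes also occurred in the other. No barcode was that of a member in more than 1 library.

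The members carried general macrophage genes that the rule did not use. The sum of 10 such genes, among them Adgre1, Csf1r, Mertk, C1qa, C1qb, C1qc, Cd68, Fcgr1 and Spi1, stood at 2983 CPM (2908 to 3060) in Q150X 3dpMI members and 2782 CPM (2698 to 2867) in WT 3dpMI members. It stood at 2018 CPM (1881 to 2163) in Q150X homeostasis members and 1717 CPM (1397 to 2089) in WT homeostasis members. In all other nuclei of the same libraries the sum was 884.4, 450.5, 140 and 89.15 CPM, in the same order. All 10 genes had UMIs in members of 3 libraries, and 9 did in WT homeostasis members, where Fcgr1 had none. A list of 7 lymphatic endothelial genes, of interest because Lyve1 also marks those cells, stood at 105.4, 114.2, 188.3 and 137.4 CPM in members and 174.1, 202, 201 and 158 CPM outside them, in the order Q150X 3dpMI, WT 3dpMI, Q150X homeostasis, WT homeostasis. In that order, 10 fibroblast genes stood at 2892, 1910, 3610 and 3246 CPM in members. Outside them they stood at 6615, 5118, 5252 and 3114 CPM. A list of 10 B cell genes had 865.2, 820.7, 1868 and 1941 CPM in members. Its level outside them was 2133, 1654, 1911 and 1332 CPM. Erythroid genes (6) had 69.07, 34.53, 326.3 and 1254 CPM in members. Other nuclei had 54.36, 42.31, 1277 and 693.7 CPM of these. WT homeostasis members thus lay above other nuclei in the B cell list (interval 1599 to 2333 CPM) and the erythroid list (983 to 1576 CPM). For the fibroblast list their interval (2799 to 3743 CPM) held the level of other nuclei. At least 1 of the macrophage genes was seen in 94.8% of Q150X 3dpMI members, 94.7% of WT 3dpMI members, 83% of Q150X homeostasis members and 64.8% of WT homeostasis members.

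Most members were chosen through F13a1 and Mrc1. F13a1, the A subunit of coagulation factor XIII, was seen in 95.2% of Q150X 3dpMI members, 96.4% of WT 3dpMI members and 95.8% of the members of each homeostasis library, and Mrc1 in 95.5%, 94.2%, 88.3% and 85.9%, in the order Q150X 3dpMI, WT 3dpMI, Q150X homeostasis, WT homeostasis. Cd163 was seen in 42.8%, 39.2%, 36.5% and 28.2% in that order, and Siglec1, a sialic acid-binding adhesion receptor, in 46.8%, 42.3%, 10.9% and 4.23%. Lyve1, a hyaluronan receptor of resident macrophages and lymphatic endothelium, was seen in 13.7%, 19.2%, 27.6% and 28.2%, and Folr2, a folate receptor, in 16.4%, 12.3%, 7.8% and 2.82%. Such shares depend on depth and levels do so less. Siglec1 stood at 237 CPM in Q150X 3dpMI members and 233.7 CPM in WT 3dpMI members, against 113 CPM in Q150X homeostasis members and 68.69 CPM in WT homeostasis members, while Lyve1 stood at 73.61, 102.3, 278.6 and 343.5 CPM. These genes selected the nuclei, so the values are a description.

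The pair Mrc1 and F13a1, with no other marker, was the whole basis for 26.1% of Q150X 3dpMI members, 26.6% of WT 3dpMI members, 37.3% of Q150X homeostasis members and 46.5% of WT homeostasis members. F13a1 is also made by monocytes. Without it the rule kept 255, 240, 174 and 28 nuclei in that order. Both transcripts also appeared in nuclei with at least 10% of UMIs from Ttn, Ryr2 and Myh6, cardiomyocyte nuclei that should lack them. F13a1 was seen there in 25.9% of 27 nuclei in the Q150X 3dpMI library (median 1322 UMIs) and 6.45% of 31 nuclei in the WT 3dpMI library (median 1309 UMIs), and Mrc1 in 14.8% and 12.9%. Cd163 was seen in none of these nuclei in the Q150X 3dpMI library and in 3.23% in the WT 3dpMI library. Just inside the threshold, members with exactly 2 markers had 2473, 2463, 1812 and 1536 CPM of the 10 macrophage genes (order as above), and just outside it nuclei with a single marker that led the other lists had 1230, 684.1, 567.8 and 452.5 CPM. At 3dpMI another 1540 nuclei of the Q150X library and 692 of the WT library had 2 or more of the 6 markers but as many or more genes of another list. These nuclei were left out.

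Resident-like nuclei made up a larger share of all nuclei in both Q150X libraries than in the WT library of the same condition. They were 7.36% (6.81 to 7.95) of 8120 nuclei in the Q150X 3dpMI library and 5.79% (5.32 to 6.29) of 9149 in the WT 3dpMI library, a ratio of 1.27 (1.14 to 1.42). Without infarction they were 5.54% (5 to 6.13) of 6478 nuclei in the Q150X library and 1.62% (1.27 to 2.04) of 4381 in the WT library, a ratio of 3.42 (2.66 to 4.40). The WT homeostasis library therefore stands apart as the one with few members, and both ratios that use it rest on its 71 nuclei. The share at 3dpMI over homeostasis was 1.33 (1.17 to 1.51) in Q150X and 3.57 (2.80 to 4.57) in WT hearts. Without F13a1 in the rule the Q150X ratio was 1.17 (0.967 to 1.41), an interval that spans 1. The WT ratio was 7.52 (4.58 to 12.4) with at least 1000 UMIs per nucleus and 6.14 (4.15 to 9.06) with at least 3 markers. These 2 settings left only 16 and 27 members in the WT homeostasis library. A share of all nuclei moves with what else was captured: cardiomyocyte-rich nuclei numbered 29 in the Q150X homeostasis library and 312 in the WT homeostasis library, and the homeostasis ratio was 3.19 with them left out of the total.

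**Figure D1:**
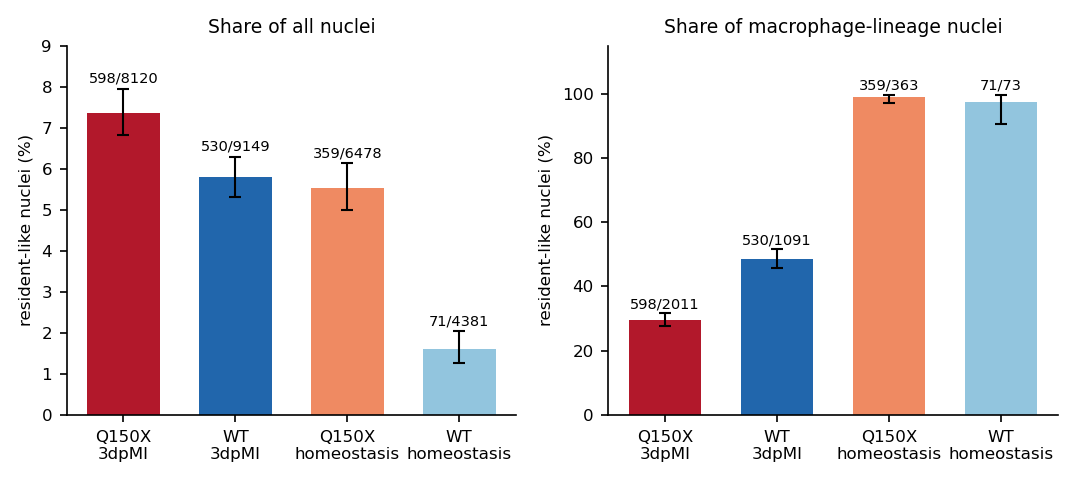
Resident-like nuclei as a percentage of all nuclei that passed the filters (left) and of macrophage-lineage nuclei, those that met the resident, repair or monocyte rule (right), in each library. Bars are shares, whiskers are 95% exact binomial intervals, and the fraction above each bar gives the nuclei counted. At 3dpMI the Q150X bar is the higher one on the left (7.36% against 5.79%) and the lower one on the right (29.7% against 48.6%).

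Among macrophage-lineage nuclei the order at 3dpMI was the opposite. Nuclei that met the repair rule, the same rule with the repair genes leading, numbered 911 in the Q150X 3dpMI library and 351 in the WT 3dpMI library, and those that met the monocyte rule numbered 502 and 210. Neither homeostasis library had a repair nucleus, which allows a share of up to 0.0569% of all nuclei in Q150X and 0.0842% in WT hearts, and monocyte nuclei numbered 4 and 2. Resident-like nuclei were thus 29.7% (27.7 to 31.8) of 2011 lineage nuclei in the Q150X 3dpMI library and 48.6% (45.6 to 51.6) of 1091 in the WT 3dpMI library, a ratio of 0.612 (0.559 to 0.670). Deeper nuclei show more repair and monocyte genes. With every nucleus thinned to 500 UMIs the shares were 50.7% (47.9 to 53.5) in Q150X and 65.5% (61.8 to 69.1) in WT hearts, a ratio of 0.774. At homeostasis they were 98.9% in Q150X and 97.3% in WT hearts.

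At 3dpMI the resident-like nuclei differed from both other classes in genes of resident macrophages that the rule did not contain. The classes were made with marker genes, so this is a description and not a test. A list of 26 such genes was used, of which 20 reached 20 UMIs in members and repair nuclei together. In the Q150X library 19 of 20 were higher in members than in repair nuclei (median log2 ratio 1.12) and 11 were past 2-fold higher, against 3.32% of all 12411 genes. In the WT library 18 of 20 were higher (median 1.42) and 12 were past 2-fold higher, against 4.47% of 10724 genes. Against monocyte nuclei 19 of 19 were higher in the Q150X library (median 1.73), 16 of them past 2-fold against 4.67% of all genes, and 20 of 20 in the WT library (median 2.47), 18 of them past 2-fold against 9.08% of all genes. The summed level of the list was 8256 CPM in members, 4211 CPM in repair nuclei and 2536 CPM in monocyte nuclei of the Q150X 3dpMI library, and 9912, 4495 and 2181 CPM in the WT 3dpMI library.

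Several of these genes separated the classes in both libraries. Cbr2, a carbonyl reductase, had 79.7 CPM in members and 16.7 CPM in repair nuclei of the Q150X library, and 117 and 16.5 CPM in the WT library. Colec12, a scavenger receptor of the collectin family, had 310 against 91.3 CPM in Q150X and 507 against 111 CPM in WT hearts, and Rbpj, the DNA-binding partner of Notch receptors, had 2355 against 742 CPM and 3853 against 943 CPM. Vsig4, a complement receptor that marks tissue macrophages, had 41.8 CPM in members and 3.2 CPM in monocyte nuclei of the Q150X library, and 31.9 CPM (48 UMIs) in members and no UMI in monocyte nuclei of the WT library. Timd4, a phosphatidylserine receptor used to mark self-maintained resident macrophages, had 16 UMIs in members and 1 in each of the other classes in the Q150X library, and 21 and none in the WT library. The receptors and enzymes did not all behave alike: Igf1, insulin-like growth factor 1, had 264 CPM in members against 211 CPM in repair nuclei of the Q150X library and 264 against 265 CPM in the WT library, and 64.6 CPM in monocyte nuclei of the Q150X library and 36.6 CPM in those of the WT library.

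**Figure D2:**
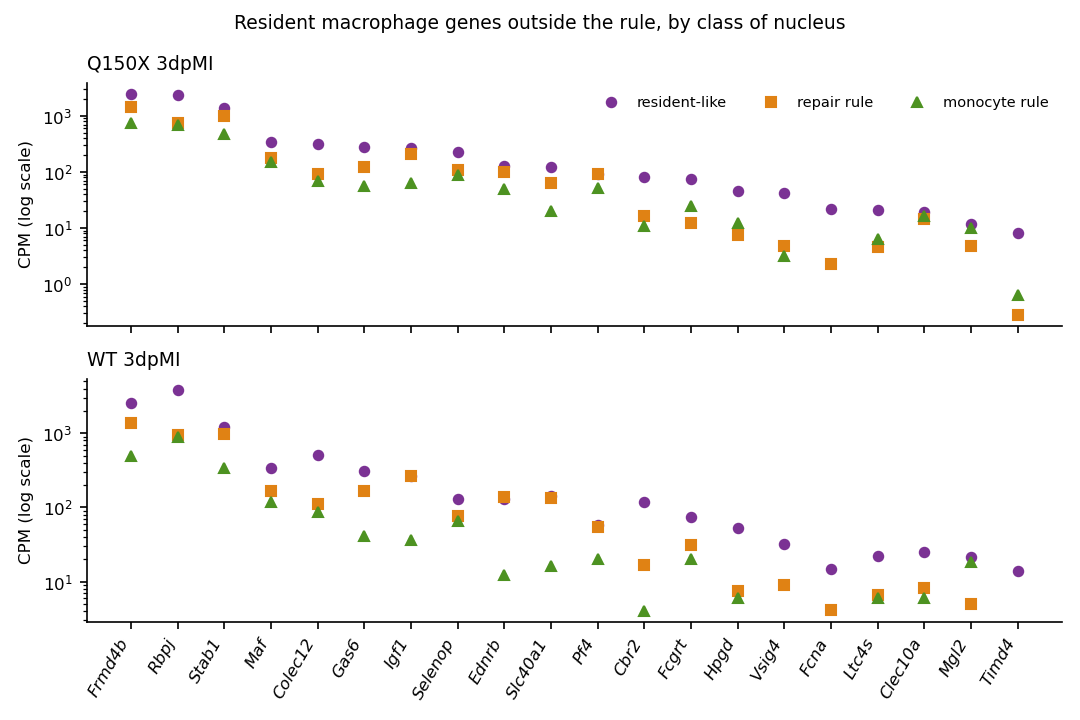
CPM (log axis) of 20 resident macrophage genes that the rule did not use, in resident-like, repair-rule and monocyte-rule nuclei of the Q150X 3dpMI library (top) and the WT 3dpMI library (bottom). Points are levels of summed UMIs, and a class with no UMI of a gene has no point. Rbpj stands at 2355 CPM in Q150X members and 3853 CPM in WT members, above both other classes of its library.

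Ranked over all genes outside the rule, the genes most in excess of repair nuclei in both libraries were led by Lifr, the receptor of leukaemia inhibitory factor (ratio 5.17, 4.46 to 6.02, in Q150X; 6.05, 4.83 to 7.64, in WT), followed by Rgs7bp, the organic anion transporter Slco2b1, the prostaglandin-degrading enzyme Hpgd, Cbr2, the leukotriene enzyme Alox5 and Lilra5. Cmah, Rbpj, Colec12, complement C4b and the cytokine Il16 completed the 12. The genes lowest against repair nuclei were led by Il7r (0.0579 in Q150X, 0.057 in WT), the elastase Mmp12 (0.0504 and 0.0718) and Atp6v0d2, a subunit of the lysosomal proton pump (0.0892 and 0.0773). Coagulation factor F7, Spsb4, Cd300lf, Adra1a, Sel1l3, Stra6l, Junos, Kcnn4 and the stress factor Atf3 followed. Of 29 genes of lysosomes and lipid handling, 25 were lower in members than in repair nuclei of the Q150X library and 28 in the WT library, with 7 and 10 past 2-fold lower, against 3.03% and 3.55% of all genes. Against monocyte nuclei the leading genes were Slit1 (159 UMIs against 11 in Q150X; 99 against 0 in WT), the growth factor Pdgfc (ratio 7.93 in Q150X, 25.6 in WT), Reps2, Cbr2, the prostaglandin D synthase Hpgds, the iron exporter Slc40a1, Vsig4 and Gas6, a bridging ligand for the clearance of dying cells. Stard8, Tmod1, Adam33 and Ppp1r9a followed. Lowest were the signal-regulatory genes Sirpb1a (0.153 in Q150X, 0.0932 in WT) and Sirpb1b, near-identical copies between which reads can be split. Sirpb1c, of the same family, is a monocyte gene of the rule, so the place of these copies is not independent of the choice. Cd244a, F10, Dgkg, Met, the Src kinase Fgr, Cytip, Htr7, Plac8 and Ciita, the master regulator of MHC class II genes, followed.

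Members with and without a Lyve1 UMI are set side by side as a description, since Lyve1 is a gene of the rule: members without it qualified through 2 other markers, and at 3dpMI those with it were the deeper nuclei. In the Q150X 3dpMI library 82 members had a Lyve1 UMI (median 3895 UMIs per nucleus) and 516 had none (median 2598 UMIs). The resident list outside the rule stood at 11826 CPM in the members with Lyve1 and 7414 CPM in those without, a ratio of 1.60 (1.54 to 1.65). In the WT 3dpMI library it stood at 12233 CPM in 102 members with Lyve1 and 9170 CPM in 428 without, a ratio of 1.33 (1.29 to 1.38). In the Q150X homeostasis library the ratio was 1.10 (1.02 to 1.18), and in the WT homeostasis library 1.06 (0.869 to 1.28). Rbpj was the clearest of the abundant genes, at 4093 CPM with Lyve1 and 1944 CPM without in the Q150X 3dpMI library and at 5312 and 3387 CPM in the WT 3dpMI library. Colec12 had 541 and 255 CPM in the Q150X 3dpMI library and 726 and 436 CPM in the WT 3dpMI library. Fcna, a ficolin of tissue macrophages, had 66 and 11.2 CPM in the Q150X 3dpMI library, but 19.2 and 13.1 CPM on 22 UMIs in the WT 3dpMI library, where the interval of the ratio (0.503 to 3.80) spans 1.

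A list of 26 recruited monocyte and repair genes outside the rule stood at 1991 CPM in the Q150X 3dpMI members with Lyve1 and 3115 CPM in those without (ratio 0.639, 0.591 to 0.690), and at 1565 and 1925 CPM in the WT 3dpMI library (ratio 0.813, 0.740 to 0.892). At homeostasis its ratio was 1.12 (0.877 to 1.43) in the Q150X library and 0.687 (0.290 to 1.46) in the WT library, intervals that span 1. Spp1, osteopontin, had 140 CPM with Lyve1 and 303 CPM without in the Q150X 3dpMI library, and 79.5 and 131 CPM in the WT 3dpMI library. Fos, an immediate early gene, had 26.4 and 91.6 CPM in the Q150X 3dpMI library and 27.4 and 108 CPM in the WT 3dpMI library. Vcan, the matrix proteoglycan versican, did not keep its direction: it was lower with Lyve1 in the Q150X 3dpMI library (ratio 0.326, 0.208 to 0.490) and higher in the WT 3dpMI library (ratio 1.85, 1.29 to 2.63).

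After infarction, Q150X members had more RNA of recruited-cell, interferon and lysosomal genes and less of cell-cycle genes than WT members. Of 11423 genes that reached 20 UMIs in the pair of libraries, 3.38% were past 2-fold higher and 2.61% past 2-fold lower in Q150X, and the median log2 ratio over all of them was 0.04. The 8 genes most in excess, ranked by the bound of the interval nearest to 1, were Il1r2, Odc1, Spp1, Chil3, Mpeg1, Apoe, Cd74 and Fabp5. The 8 lowest were Cd209c, Marco, Slc7a11, Slc13a3, Slc22a21, Arl4a, Radx and Cmah. Most of these are genes of modest level.

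Spp1, a secreted phosphoprotein of repair macrophages, stood at 272.3 CPM (540 UMIs) in Q150X 3dpMI members and 118.9 CPM (179 UMIs) in WT 3dpMI members, a ratio of 2.29 (1.93 to 2.73). It had no UMI in either group of homeostasis members. Apoe, an apolipoprotein that carries lipid out of macrophages, stood at 493.1 and 236.4 CPM (ratio 2.09, 1.85 to 2.36). Mpeg1, a pore-forming protein of phagosomes, stood at 148.2 and 62.42 CPM (ratio 2.37, 1.88 to 3.03). Il1r2, a decoy receptor for interleukin 1 that neutrophils also make in quantity, had 66 UMIs in Q150X and 6 in WT members (ratio 8.35, 3.64 to 23.6). Chil3, a chitinase-like protein of activated macrophages, had 66 and 15 UMIs (ratio 3.34, 1.89 to 6.30), and Odc1, the first enzyme of polyamine synthesis, had 45 and 8 (ratio 4.27, 1.99 to 10.5). All of these were also higher in the rest of the Q150X library: outside the members Spp1 stood at 259 CPM in Q150X and 82.7 CPM in WT hearts, Apoe at 226 and 75 CPM, Mpeg1 at 72.2 and 27 CPM, Il1r2 at 28.2 and 9.69 CPM, Chil3 at 19 and 6.96 CPM and Odc1 at 19.7 and 17.1 CPM. How much free RNA from other nuclei contributes to the members' difference was not tested.

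Among the genes lower in Q150X, Marco, a scavenger receptor for bacteria and particles, had 7 UMIs in Q150X 3dpMI members and 40 in WT 3dpMI members (ratio 0.133, 0.0502 to 0.300), from 0.669% and 3.4% of the nuclei. Cd209c, a lectin of the DC-SIGN family, had 3 and 45 UMIs (ratio 0.0506, 0.0101 to 0.158), but the WT UMIs came from 0.377% of the members (2 nuclei), and among members with at least 3 markers the ratio was 1.48. Slc7a11, the cystine importer used for glutathione, had 9.58 and 41.83 CPM (ratio 0.229, 0.129 to 0.388), and Slc13a3, a dicarboxylate transporter, had 13.1 and 47.1 CPM. Cmah, the enzyme that makes the sialic acid Neu5Gc, had 40.84 and 98.28 CPM at 3dpMI (ratio 0.416, 0.313 to 0.548) and 150.6 and 343.5 CPM at homeostasis (ratio 0.439, 0.261 to 0.768). Of these 8 genes it was the one with an interval below 1 in both conditions. Outside the members it stood at 48.6 and 35.7 CPM at 3dpMI.

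**Figure D3:**
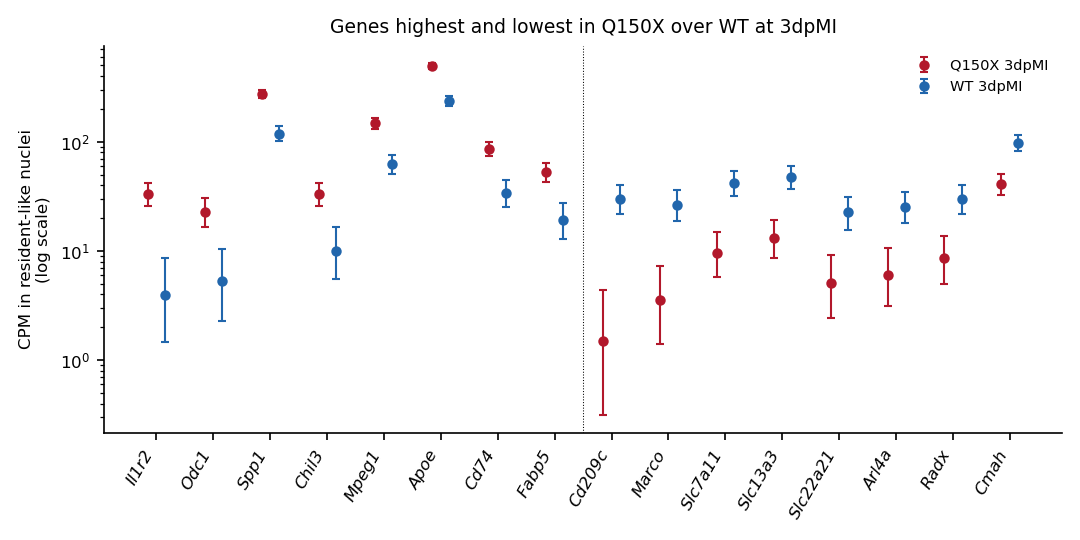
CPM (log axis) in resident-like nuclei of the 8 genes highest (left of the dotted line) and the 8 lowest (right of it) in the Q150X 3dpMI library over the WT 3dpMI library. Points are levels of summed UMIs and whiskers are 95% exact Poisson intervals. Apoe and Spp1 are the most abundant of the 16, at 493.1 and 272.3 CPM in Q150X members and 236.4 and 118.9 CPM in WT members.

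The list of recruited monocyte and repair genes outside the rule had the highest median. Of 20 measured genes, 19 were higher in Q150X 3dpMI members, 8 of them past 2-fold (against 3.38% of all genes), with a median log2 ratio of 0.67. The sum was 2901 CPM in Q150X and 1838 CPM in WT members (ratio 1.58, 1.51 to 1.65). Fn1, the matrix protein fibronectin, stood at 633.3 and 297.5 CPM (ratio 2.13, 1.91 to 2.38). F10, coagulation factor X, had 29 and 5 UMIs. Plaur, the urokinase receptor, was the one measured gene that was lower, with 33.28 and 44.49 CPM. In nuclei outside the members the list stood at 2616 CPM in the Q150X library and 1332 CPM in the WT library. A list of 10 neutrophil genes, which holds Il1r2, stood at 242 CPM (221 to 265) in Q150X 3dpMI members and 161.4 CPM (142 to 183) in WT 3dpMI members, with 9 of 10 genes present in each and Ly6g at 0 in both. A list of 10 fibroblast genes, cells that make fibronectin in quantity, stood at 2892 CPM (2817 to 2967) in Q150X 3dpMI members and 1910 CPM (1841 to 1982) in WT 3dpMI members, with all 10 genes present in both. The part of these other cell types in the difference was not tested.

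All 28 interferon response genes were higher in Q150X 3dpMI members than in WT 3dpMI members, against 54.8% of all genes tested. Their median log2 ratio was 0.40 and 5 were past 2-fold (against 3.38% of all genes). The sum was 2829 CPM in Q150X and 2287 CPM in WT members (ratio 1.24, 1.19 to 1.29). Ifit3, an interferon-induced antiviral protein, had 21.18 CPM (42 UMIs) in Q150X and 6.64 CPM (10 UMIs) in WT members. Ifi47, an interferon-induced GTPase, had 21 and 5 UMIs, and Ifit2 had 71 and 23. Rsad2, the antiviral enzyme viperin, had 40.34 and 21.25 CPM. The smallest ratios were those of Trim30a (1.06), Parp14 (1.07) and Ddx60 (1.09), whose intervals span 1. The list was also higher outside the members, at 1669 CPM in the Q150X library and 1196 CPM in the WT library, and within repair nuclei (2239 and 1931 CPM) and monocyte nuclei (3660 and 2835 CPM).

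Interferon genes are switched on through the interferon-stimulated response element, searched here as TTTCNNTTTC on both strands. RefSeq promoter windows (GRCm38.p6, 250 bases before to 50 after a gene's start) were matched for 22 of the 28 genes, and 11 of these, 50%, held the motif, against 3.99% of 27025 genes and 3.44% of 32851 windows. A match is a run of letters and not a measured binding site. The windows of Ifit3, among the genes with the highest ratio, and of Rsad2 are shown with the matches in capitals. Ifit3 lies at chr19:34583279-34583578 on the plus strand, with 2 matches of which the first starts 156 bases before the gene's start, and Rsad2 at chr12:26456403-26456702 on the minus strand, with 1 match.
Ifit3: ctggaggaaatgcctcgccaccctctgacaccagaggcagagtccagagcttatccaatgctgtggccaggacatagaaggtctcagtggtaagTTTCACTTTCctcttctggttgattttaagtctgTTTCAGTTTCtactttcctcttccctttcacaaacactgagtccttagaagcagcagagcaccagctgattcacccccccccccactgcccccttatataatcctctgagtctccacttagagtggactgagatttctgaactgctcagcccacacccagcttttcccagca
Rsad2: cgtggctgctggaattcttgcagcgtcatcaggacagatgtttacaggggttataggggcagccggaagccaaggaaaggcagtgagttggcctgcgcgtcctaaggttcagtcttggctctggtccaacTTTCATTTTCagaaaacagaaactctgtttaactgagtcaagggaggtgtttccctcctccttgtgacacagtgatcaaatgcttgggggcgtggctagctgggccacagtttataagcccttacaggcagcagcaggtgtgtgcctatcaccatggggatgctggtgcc

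Lysosome and lipid genes were higher for 23 of 29 members of their list (against 54.8% of all genes), 2 of them past 2-fold (against 3.38%). Their median log2 ratio was 0.38, with a sum of 8006 CPM in Q150X and 6615 CPM in WT 3dpMI members (ratio 1.21, 1.18 to 1.24). Fabp5, a fatty acid-binding protein, had 52.44 and 19.26 CPM (ratio 2.72, 1.79 to 4.26), and Cd63, a tetraspanin of lysosomes, 82.18 and 41.17 CPM (ratio 2.0, 1.48 to 2.72). Lpl, lipoprotein lipase, was lower, at 54.45 and 100.9 CPM (ratio 0.539, 0.418 to 0.695), as was the fatty acid receptor Cd36 at 211.3 and 322.1 CPM (ratio 0.656, 0.574 to 0.749). Both are genes of endothelium and cardiomyocytes too, and outside the members Lpl stood at 110 CPM in the Q150X library and 252 CPM in the WT library.

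MHC class II genes, which present antigen to helper T cells, were higher for 6 of 7 measured genes (median log2 ratio 0.33), against 54.8% of all genes. Their sum was 259.2 CPM in Q150X and 165.3 CPM in WT 3dpMI members (ratio 1.57, 1.34 to 1.83). Cd74, the invariant chain, had 85.71 and 33.87 CPM (ratio 2.53, 1.84 to 3.53), H2-Ab1 had 34.28 and 13.94 CPM (ratio 2.46, 1.49 to 4.22) and H2-Aa had 27.23 and 15.27 CPM (ratio 1.78, 1.08 to 3.04). H2-DMb1 was the 1 gene not higher (ratio 0.879, 0.454 to 1.72). These levels lie near those of nuclei outside the members, where Cd74 stood at 69 CPM in the Q150X library and 35.9 CPM in the WT library.

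Resident macrophage genes outside the rule were lower for 14 of 20 measured genes, while 54.8% of all genes were higher. None was past 2-fold. The median log2 ratio was -0.06 and the sum 8256 CPM in Q150X and 9912 CPM in WT 3dpMI members (ratio 0.833, 0.815 to 0.852). Much of the sum was Rbpj, with 2355 and 3853 CPM (ratio 0.611, 0.588 to 0.635). Colec12 had 310.1 and 506.7 CPM (ratio 0.612, 0.549 to 0.681), Cbr2 had 79.66 and 116.9 CPM (ratio 0.682, 0.546 to 0.850), and Mgl2, a galactose-binding lectin, had 23 and 32 UMIs (ratio 0.546, 0.305 to 0.962). Others were higher: Selenop, a selenium carrier protein, had 228.9 and 130.1 CPM (ratio 1.76, 1.48 to 2.09), and Pf4, platelet factor 4, had 93.28 and 57.11 CPM (ratio 1.63, 1.26 to 2.13). Maf, a transcription factor of tissue macrophages, had 336.8 and 340 CPM (ratio 0.991, 0.882 to 1.11), and Frmd4b had 2447 and 2578 CPM. The list thus split by gene rather than moving as a whole.

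Cell-cycle genes were lower for 17 of 20, while 54.8% of all genes were higher. Their median log2 ratio was -0.35 and none was past 2-fold. Their sum was 1475 CPM in Q150X and 1906 CPM in WT 3dpMI members (ratio 0.774, 0.734 to 0.815). Mki67, a marker of cycling cells, had 182 and 229.1 CPM (ratio 0.795, 0.684 to 0.924), Top2a, the topoisomerase of replicating chromosomes, 81.68 and 104.3 CPM (ratio 0.783, 0.625 to 0.982), and the mitotic motor Kif11 48.4 and 73.71 CPM (ratio 0.657, 0.494 to 0.871). Outside the members the list was higher in the Q150X library, at 1547 CPM against 1012 CPM in the WT library, and repair nuclei had 1828 and 1329 CPM. Within the WT 3dpMI library members therefore had more cell-cycle RNA than repair nuclei, and within the Q150X 3dpMI library less.

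The remaining lists had medians between -0.27 and 0.20. Of all genes tested 54.8% were higher, and counts near that share are not read as a shift. General macrophage genes were higher for 18 of 24 (median log2 ratio 0.20), among them Lyz2, lysozyme, at 558.1 and 405.1 CPM, while Adgre1, which encodes the F4/80 antigen, was lower at 588.4 and 774.9 CPM (ratio 0.759, 0.700 to 0.824). Genes of hypoxia and glycolysis were higher for 20 of 24 (median 0.18), cytokines and chemokines for 13 of 19 (0.14), the glucocorticoid response for 7 of 12 (0.09), efferocytosis for 12 of 22 (0.07), macrophage transcription factors for 16 of 27 (0.05), iron and haem handling for 9 of 17 (0.05), complement for 7 of 14 (0.05), growth factors for 10 of 18 (0.05) and integrins and matrix contact for 13 of 24 (0.04). Scavenger and lectin receptors were higher for 8 of 17 (median -0.01), immediate early and heat shock genes for 7 of 16 (-0.11) and genes of alternative activation for 3 of 12 (-0.27).

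**Figure D4:**
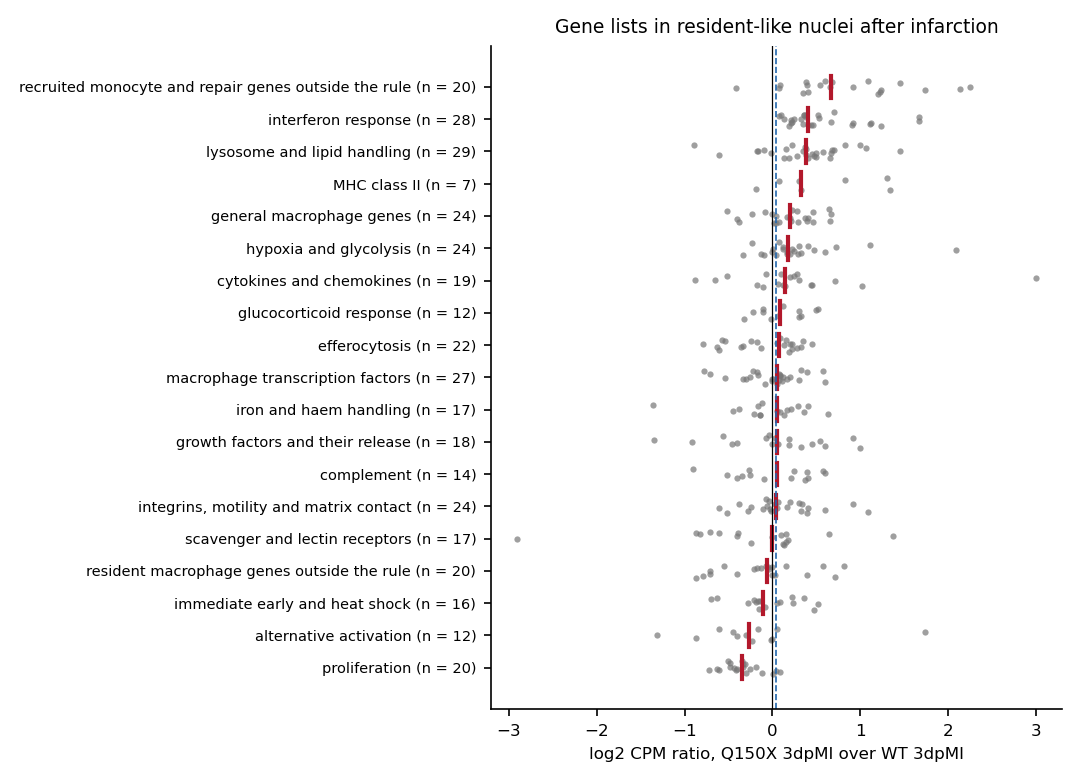
Log2 CPM ratios in resident-like nuclei, Q150X 3dpMI over WT 3dpMI, for 19 gene lists. Each grey point is a gene that reached 20 UMIs in the pair of libraries, red marks are list medians, the dashed line is the median of all genes (0.04) and the solid line is 0; vertical scatter within a row carries no value. The recruited monocyte and repair list has the highest median (0.67) and proliferation the lowest (-0.35).

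Comparing 3dpMI with homeostasis, members of both genotypes had less MHC class II and glucocorticoid-response RNA and more lysosomal, cell-cycle and recruited-cell RNA by summed level. By list median, 2 of these turned in WT hearts under other settings, as given with each list. In Q150X, 21% of 10504 genes were past 2-fold higher and 8.79% past 2-fold lower, and in WT hearts 33.2% of 9044 genes were past 2-fold higher and 9.44% past 2-fold lower. Centred on the median of all genes, the 2206 higher and 923 lower genes of Q150X became 1540 and 1307, and the 3002 and 854 of WT hearts became 2532 and 1460. The median log2 ratio of all genes was 0.26 in Q150X and 0.35 in WT hearts, and 62.9% and 62.6% of genes were higher at 3dpMI, so smaller shifts are not read. In WT hearts 1903 of the tested genes had no UMI in the homeostasis members. Values for the WT comparison are therefore given mainly as sums. The 2 comparisons share no library.

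MHC class II genes stood at 259.2 CPM in Q150X 3dpMI members and 559.8 CPM in Q150X homeostasis members (ratio 0.463, 0.395 to 0.544), and at 165.3 CPM in WT 3dpMI members and 755.6 CPM in WT homeostasis members (ratio 0.219, 0.158 to 0.309). Of 7 measured genes 5 were lower in Q150X and 7 in WT hearts, with 4 and 5 past 2-fold lower, against 8.79% and 9.44% of all genes. Cd74 had 85.71 CPM in Q150X 3dpMI members and 241 CPM in Q150X homeostasis members (ratio 0.356, 0.275 to 0.462), and 33.87 CPM in WT 3dpMI members and 360.6 CPM in WT homeostasis members (ratio 0.0939, 0.0555 to 0.164). H2-Aa, the alpha chain of the class II molecule I-A, had 27.23 and 77.81 CPM in Q150X (ratio 0.350, 0.221 to 0.563) and 15.27 and 120.2 CPM in WT hearts, where the homeostasis level is 7 UMIs. The Y box of class II promoters was searched as CTGATTGG on both strands: 3 of the 7 list genes with a RefSeq window held it (H2-Aa, H2-Eb1 and H2-Oa), against 4.7% of all genes. The window of H2-Aa at chr17:34287774-34288073, minus strand, is shown with the match in capitals.
H2-Aa: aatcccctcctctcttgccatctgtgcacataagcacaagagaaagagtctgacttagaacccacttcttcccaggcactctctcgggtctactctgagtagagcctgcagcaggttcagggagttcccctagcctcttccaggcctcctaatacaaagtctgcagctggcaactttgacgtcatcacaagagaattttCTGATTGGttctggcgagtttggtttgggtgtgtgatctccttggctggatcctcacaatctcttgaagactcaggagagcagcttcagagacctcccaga

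Recruited monocyte and repair genes were at 2901 CPM in Q150X 3dpMI members and 760.6 CPM in Q150X homeostasis members (ratio 3.81, 3.40 to 4.30), and at 1838 CPM in WT 3dpMI members and 738.4 CPM in WT homeostasis members (ratio 2.49, 1.84 to 3.45). Of 20 measured genes in Q150X, 19 were higher (against 62.9% of all genes) and 14 past 2-fold higher (against 21%). In WT hearts 11 of 14 were higher (against 62.6% of all genes). The list's median log2 ratio there, 0.50 with genes at 0 set to the floor of 3 counts, turned to -0.89 with at least 1000 UMIs per nucleus, -0.41 with at least 3 markers and -0.38 without F13a1. Outside the members the list stood at 2616 CPM at 3dpMI and 403.9 CPM at homeostasis in the Q150X libraries, and at 1332 and 279.7 CPM in the WT libraries. The neutrophil list stood at 242 CPM in Q150X 3dpMI members and 30.12 CPM in Q150X homeostasis members, and at 161.4 and 17.17 CPM in WT members. The part of transcripts from other nuclei was not tested. Spp1 had 540 UMIs in Q150X 3dpMI members and none in Q150X homeostasis members, a ratio with a lower interval bound of 29.3. Fn1 had 633.3 and 22.59 CPM in Q150X (ratio 28.0, 14.7 to 61.4).

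Lysosome and lipid genes stood at 8006 CPM in Q150X 3dpMI members and 3903 CPM in Q150X homeostasis members (ratio 2.05, 1.95 to 2.16), and at 6615 and 3022 CPM in WT hearts (ratio 2.19, 1.89 to 2.56). Lgals3, galectin 3, had 253.6 CPM in Q150X 3dpMI members and 22.59 CPM in Q150X homeostasis members (ratio 11.2, 5.87 to 24.7), and 238 UMIs against none in WT hearts. Trem2, a lipid receptor of phagocytes, had 169 UMIs in Q150X 3dpMI members and 1 in Q150X homeostasis members (ratio 33.9, 6.01 to 1349). Ctsd, the lysosomal protease cathepsin D, had 271.8 and 35.14 CPM in Q150X (ratio 7.73, 4.57 to 14.2). Lpl and Cd36 were lower in Q150X 3dpMI members, with ratios of 0.293 (0.216 to 0.400) and 0.573 (0.473 to 0.696).

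Iron genes differed among themselves. Hmox1, the haem-degrading enzyme, had 243.5 CPM in Q150X 3dpMI members and 17.57 CPM in Q150X homeostasis members (ratio 13.9, 6.68 to 34.7), and 218.5 and 17.17 CPM in WT hearts, the last on 1 UMI. Slc40a1, which exports iron from macrophages, had 122 and 10.04 CPM in Q150X (ratio 12.2, 4.69 to 45.0), and 213 UMIs against none in WT hearts. Slc48a1, a haem transporter of the phagosome, had 101 UMIs against 1 in Q150X. Steap4 and Cp, which stood at 36.5 and 328 CPM outside the members of the Q150X homeostasis library, were lower at 3dpMI in Q150X, with ratios of 0.251 (0.124 to 0.518) and 0.279 (0.208 to 0.376).

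**Figure D5:**
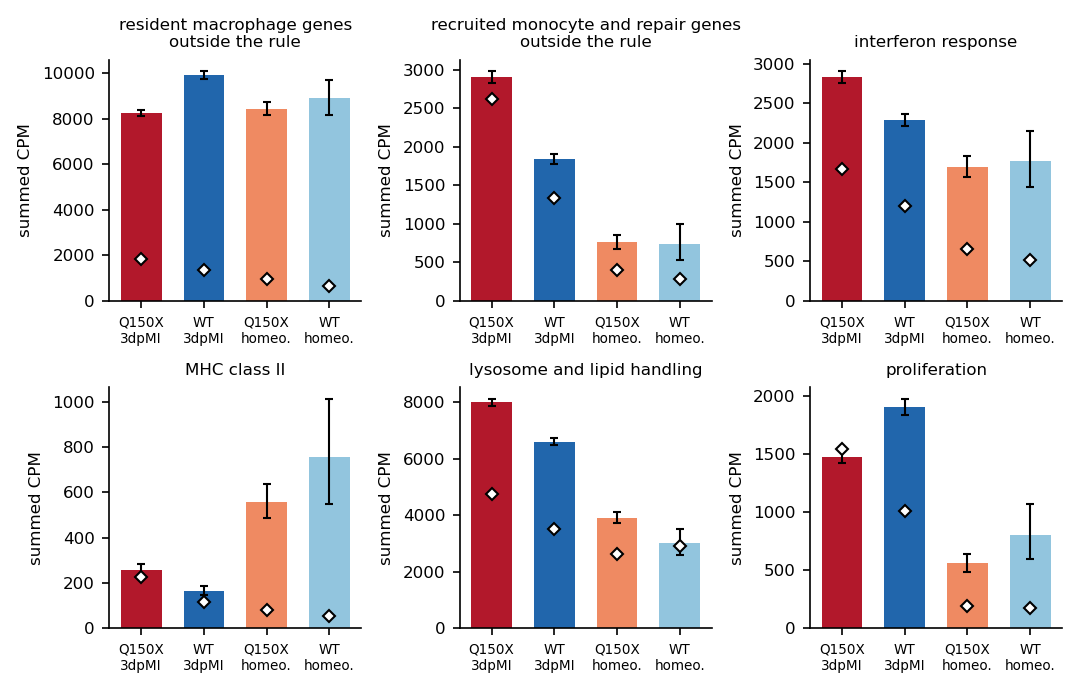
Summed CPM of 6 gene lists in resident-like nuclei of each library. Bars are levels with 95% exact Poisson intervals, and open diamonds are the level in all other nuclei of the same library. MHC class II is lower at 3dpMI (259.2 CPM in Q150X, 165.3 CPM in WT) than at homeostasis (559.8 and 755.6 CPM), and proliferation is the one list whose other nuclei lie above the members, in the Q150X 3dpMI library.

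Resident macrophage genes outside the rule had close sums in both conditions, at 8256 CPM in Q150X 3dpMI members and 8434 CPM in Q150X homeostasis members (ratio 0.979, 0.943 to 1.02), and at 9912 and 8895 CPM in WT hearts (ratio 1.11, 1.02 to 1.22). General macrophage genes, by contrast, had higher sums at 3dpMI, with ratios of 1.61 (1.55 to 1.68) in Q150X and 1.63 (1.46 to 1.81) in WT hearts. Single genes of the resident list differed more than its sum. Igf1 had 263.7 CPM in Q150X 3dpMI members and 105.4 CPM in Q150X homeostasis members (ratio 2.50, 1.82 to 3.51), and 264.3 and 51.52 CPM in WT hearts. Gas6 had 279.3 and 138.1 CPM in Q150X (ratio 2.02, 1.53 to 2.72), and Stab1, a scavenger receptor, 1362 and 695.3 CPM in Q150X (interval of the ratio 1.73 to 2.23) and 1231 and 635.4 CPM in WT hearts (ratio 1.94, 1.40 to 2.76). Timd4 was lower, with 8.07 and 35.14 CPM in Q150X (ratio 0.230, 0.105 to 0.508) and 21 against 2 UMIs in WT hearts (13.94 and 34.35 CPM), as was Mgl2 in Q150X (ratio 0.165, 0.0908 to 0.297). Rbpj differed between the genotypes: 2355 CPM at 3dpMI and 3301 CPM at homeostasis in Q150X (ratio 0.713, 0.671 to 0.759), and 3853 and 3177 CPM in WT hearts (ratio 1.21, 1.05 to 1.41).

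Cell-cycle genes stood at 1475 CPM in Q150X 3dpMI members and 559.8 CPM in Q150X homeostasis members (ratio 2.63, 2.30 to 3.03), with 19 of 19 measured genes higher (against 62.9% of all genes), and at 1906 and 807.1 CPM in WT hearts (ratio 2.36, 1.77 to 3.22), with 18 of 19 higher (against 62.6%). With genes at 0 set to the floor the WT median log2 ratio was 0.97, and it turned to -0.35 with at least 3 markers. Genes of the glucocorticoid response stood at 2406 CPM in Q150X 3dpMI members and 4501 CPM in Q150X homeostasis members (ratio 0.535, 0.506 to 0.565), and at 2406 and 5066 CPM in WT hearts (ratio 0.475, 0.422 to 0.537). The list did not fall as a whole. In Q150X 8 of 12 measured genes were lower (median log2 ratio -0.29). Of the 12, 4 were past 2-fold lower (against 8.79% of all genes) and 2 past 2-fold higher (against 21%). In WT hearts 8 of 11 were lower. Of these 11, 3 were past 2-fold lower (against 9.44%) and 3 past 2-fold higher (against 33.2%). Much of the homeostasis sums was Zbtb16. Zbtb16, a zinc finger factor induced by glucocorticoids, had 561.7 and 1918 CPM in Q150X (ratio 0.293, 0.267 to 0.322) and 700.5 and 2439 CPM in WT hearts (ratio 0.287, 0.241 to 0.345), and Tsc22d3, the anti-inflammatory protein GILZ, had 146.7 and 338.9 CPM and 158 and 515.2 CPM. Both genes were also lower at 3dpMI outside the members, where Zbtb16 had 1000 and 2936 CPM in the Q150X libraries and 1836 and 3805 CPM in the WT libraries. Interferon genes were higher for 25 of 26 measured genes in Q150X (median log2 ratio 0.91, sum ratio 1.66, 1.54 to 1.81) and for 13 of 21 in WT hearts (median 0.31, sum ratio 1.29, 1.06 to 1.59), where the share of genes higher and the median lie at or below those of all genes.

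The remaining genes at the extremes of these 2 comparisons were of mixed kind. In WT hearts the highest were Cmss1, the Mediator kinase Cdk8, the calcium channel Cacna1d, the interleukin 4 receptor Il4ra (413 and 17.2 CPM), Rsrp1, the lysosomal protease Lgmn (830 and 103 CPM), the actin-bundling protein Lcp1 and Nav2. In Q150X they were Spp1, Fgr, Hmox1, the transporter Slc37a2, Trem2, Cmss1, Lgals3 and Fos. Cmss1 was not particular to members: it stood at 22703 CPM in Q150X 3dpMI members and 3602 CPM in Q150X homeostasis members, and at 20181 and 2583 CPM outside the members. The lowest genes in Q150X included Cadm2, Slc35f1, Grip1, Gpm6a, Vwa3a and Opcml with the muscle genes Ckm and Myl3, while a list of 12 cardiomyocyte genes stood at 640.3 CPM in Q150X 3dpMI members and 2051 CPM in Q150X homeostasis members. The lowest in WT hearts included Pcdh9, Hmcn2, Vwa3a, Amy1, Nt5c3b, Grik2 and C1qtnf7 beside Cd74, and a list of 10 fibroblast genes that holds Pcdh9 stood at 1910 CPM in WT 3dpMI members and 3246 CPM in WT homeostasis members. The part of these transcripts of other cell types in the ratios was not tested.

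Without infarction, Q150X and WT members could be compared only coarsely. Of 4426 genes, 14.5% were past 2-fold higher and 4.43% past 2-fold lower in Q150X, and 107 had no UMI in the WT members. Apoe had 497 CPM (198 UMIs) in Q150X homeostasis members and 103 CPM (6 UMIs) in WT homeostasis members (ratio 4.82, 2.18 to 13.3), the same direction as at 3dpMI. Csmd1, Myl3, Emp1, Copa and Cadm2 had 101, 71, 58, 57 and 45 UMIs in Q150X and none in WT members. The lower interval bounds of their ratios were 3.93, 2.74, 2.23, 2.19 and 1.71. The UMIs of Csmd1 and Cadm2 came from 1.95% and 1.67% of the Q150X members. Actc1, cardiac actin, and Rsrp1 had 88 and 86 UMIs in Q150X and 2 each in WT members. The list of 12 cardiomyocyte genes stood at 2051 CPM (1913 to 2196) in Q150X and 841.5 CPM (623 to 1112) in WT members, with Myh7, Myl3, Tnnc1 and Pln at 0 in WT members, and its part in these ratios was not tested.

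The genes lower in Q150X homeostasis members were led by Gphn, which encodes the scaffold protein gephyrin, at 1955 and 8363 CPM (ratio 0.234, 0.209 to 0.262), and Lars2, the mitochondrial leucyl-tRNA synthetase, at 411.7 and 1133 CPM (ratio 0.363, 0.271 to 0.491). Both were lower outside the members too, at 1815 and 4873 CPM for Gphn and 301 and 606 CPM for Lars2. B3gntl1, Ctps2, Raet1e, Rad51b, Cdk5rap2 and Taf4 had between 9 and 23 UMIs in the WT members. The lists gave no median beyond 0.5 in either direction except iron and haem handling (5 of 7 genes higher against 54.6% of all genes, 3 past 2-fold against 14.5%, and a sum of 1165 CPM in Q150X and 841.5 CPM in WT members, but a median that turned to -0.33 with at least 1000 UMIs per nucleus), cytokines and chemokines (1.14 over 2 genes) and hypoxia and glycolysis (0.64 over 7 genes). Resident macrophage genes stood at 8434 CPM in Q150X and 8895 CPM in WT members (ratio 0.948, 0.864 to 1.04), interferon genes at 1699 and 1769 CPM (0.961, 0.780 to 1.19), complement genes at 1938 and 1408 CPM (1.38, 1.09 to 1.75) and lysosome and lipid genes at 3903 and 3022 CPM (1.29, 1.10 to 1.52).

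Vegfa itself was a minor transcript of these nuclei. It had 26.22 CPM (52 UMIs) in Q150X 3dpMI members and 17.26 CPM (26 UMIs) in WT 3dpMI members, a ratio of 1.52 (0.931 to 2.53), and 20 UMIs in Q150X and 1 in WT homeostasis members. Outside the members it stood at 133 and 213 CPM at 3dpMI and at 387 and 431 CPM at homeostasis. A stop-gained allele can leave the RNA in place, so these counts do not check the genotype labels. Other growth factors were more abundant in members: Pdgfc had 324.7 and 261 CPM at 3dpMI (ratio 1.24, 1.10 to 1.41), and Nrp1, a co-receptor of VEGF-A, had 983.7 and 1035 CPM (ratio 0.951, 0.889 to 1.02). Flt1, the VEGF receptor of endothelium, was lower in Q150X 3dpMI members at 57.48 and 146.1 CPM (ratio 0.393, 0.311 to 0.496), beside a list of 10 vascular endothelial genes that holds it at 337.3 CPM in Q150X and 739.1 CPM in WT 3dpMI members.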

How the data were processed

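Nuclei of mouse hearts were profiled with the 10x Genomics 5' chemistry. The deposited values are unnormalised UMI counts for each gene in each nucleus. Per the file headers the authors made them with Cell Ranger 7.1.0, and the submitters' processing notes name Scanpy and the GRCm39 build. No coordinates were taken from them: promoter windows are RefSeq's, on GRCm38.p6. Filters and the marker rule left 28128 of 28216 nuclei and 1558 members, and no doublets were removed. UMI counts were summed per library and set over all UMIs of the members (CPM). Groups of 1 library allow no test, so past 2-fold is a description. Genes that reached 20 UMIs in the pair of libraries entered a comparison, and the 24 genes of the rule, mitochondrial genes and repeated symbols were left out. Named genes are the 8 highest and 8 lowest per comparison by the interval bound nearest to 1 (12 against the repair and monocyte classes), if at least as high in members as in other nuclei of the library with the higher level, and up to 3 genes at each end of a list with its defining genes; some further list genes were named after their values were seen. The members and the lists were chosen with earlier results of these data known. Alternatives were another depth minimum, 3 markers, no F13a1, Scrublet doublets removed (in 2 libraries its own threshold marked under 0.5%, and the highest scores were removed at the rate of 0.8% per 1000 nuclei), thinning to 500 UMIs, no lymphatic marker, equal weight per nucleus, median centring and 50 UMIs; a total without cardiomyocyte-rich nuclei and a minimum of 5 expected UMIs were added after seeing the data. Scripts used Python 3.11.15, scipy 1.17.1 and scanpy 1.11.5. The ratio intervals were run on simulated Poisson counts, the model they assume. Those counts hold no clustering of UMIs within nuclei, so the run cannot check coverage in these data. A few genes that the naming rule or a list holds are not reported here by name.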

Additional observations from a re-analysis of the deposited data

Results flagged for a closer look

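Among the genes named by rank, the genes of the 19 lists and the list sums, in 9 pairs of ratios reported here the same contrast between libraries pointed in opposite directions, with UMIs in both libraries and both counting intervals off 1; with 1 library per group the differences between them were not tested. For Q150X over WT members, Gphn gave 0.234 (0.209 to 0.262) without infarction and 1.13 (1.10 to 1.16) after it, and 0.656 (0.598 to 0.720) at 3dpMI over homeostasis in WT hearts against 3.17 (2.95 to 3.41) in Q150X. Lars2 was 0.668 (0.521 to 0.870) at 3dpMI over homeostasis in WT hearts and 1.76 (1.5 to 2.08) in Q150X. Outside the members Gphn stood at 5602 CPM in the Q150X 3dpMI library, 4880 CPM in the WT 3dpMI library, 1815 CPM in the Q150X homeostasis library and 4873 CPM in the WT homeostasis library. The same contrast gave 2.68 (1.19 to 7.46) for Lcp1 without infarction, on 6 WT UMIs, and 0.832 (0.765 to 0.905) after it. For Pcdh9, a gene of the fibroblast list, it gave 0.655 (0.503 to 0.863) and 2.92 (2.40 to 3.58). B3gntl1 was 0.360 (0.187 to 0.775) at 3dpMI over homeostasis in WT hearts and 1.86 (1.02 to 3.70) in Q150X. Rbpj was 1.21 (1.05 to 1.41) at 3dpMI over homeostasis in WT hearts and 0.713 (0.671 to 0.759) in Q150X, and the sum of the complement genes was 1.32 (1.06 to 1.66) in WT hearts and 0.913 (0.844 to 0.988) in Q150X. In Q150X over WT members, Zeb2, a transcription factor of macrophage identity, gave 0.651 (0.554 to 0.768) without infarction and 1.09 (1.05 to 1.13) after it.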

How the results depend on the processing

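No paired analysis was possible because each group is 1 library and the labels carry no replicate numbers. All ratios of shares of all nuclei stayed above 1 under every alternative run, with the interval of 3dpMI over homeostasis in Q150X spanning 1 without F13a1 (1.17, 0.967 to 1.41). A minimum of 1000 UMIs gave 5.21 (3.11 to 8.72) for Q150X over WT at homeostasis, and 1.82 (1.52 to 2.19) in Q150X and 7.52 (4.58 to 12.4) in WT hearts for 3dpMI over homeostasis. Requiring 3 markers gave 4.51 (3.01 to 6.74), 1.76 (1.48 to 2.1) and 6.14 (4.15 to 9.06) in the same order. The WT homeostasis library then held 16 and 27 members. Thinning to 500 UMIs gave 1.59 for Q150X over WT at 3dpMI and 1.84 for 3dpMI over homeostasis in Q150X. Among macrophage-lineage nuclei, Q150X over WT at 3dpMI was 0.774 when thinned and 0.511 without F13a1, and 3dpMI over homeostasis in Q150X and WT hearts was 0.225 and 0.410 with 3 markers, 0.134 and 0.275 without F13a1, and 0.509 and 0.666 when thinned. The 3-marker and F13a1 settings tightened the resident rule alone, and repair and monocyte nuclei still needed 2 markers. A lower resident share at 3dpMI follows from that form, so these lineage ratios cannot check the main ones. Counts of genes past 2-fold were lower with 50 UMIs required: 127 higher and 34 lower (642 and 196 in the report's setting) for Q150X over WT at homeostasis, 138 and 112 (386 and 298) at 3dpMI, 1273 and 543 (2206 and 923) for 3dpMI over homeostasis in Q150X, and 1557 and 410 (3002 and 854) in WT hearts, since fewer low genes enter. In that order they were 6.16% and 1.65% of 2063 genes, 1.58% and 1.28% of 8720, 17.3% and 7.36% of 7374, and 27.3% and 7.2% of 5694. With 5 expected UMIs required, 208 and 47 of 2516 genes (8.27% and 1.87%) were past 2-fold for Q150X over WT at homeostasis. For 3dpMI over homeostasis in WT hearts they were 504 and 156 of 2681 (18.8% and 5.82%). Without F13a1, 350 of 2261 genes were higher in Q150X at homeostasis, a share of 15.5% against 14.5% of 4426 in the report's setting. At 3dpMI over homeostasis in Q150X, 568 of 7802 were lower (7.28%, against 8.79% of 10504). For 3dpMI over homeostasis in WT hearts, 1464 genes (16.6% of 8837) were lower with 1000 UMIs per nucleus. When centred on the median of all genes 1460 (16.1% of 9044) were lower. Of the 509 alternative values of named genes 479 stayed within their counting interval; Cd209c at 3dpMI reversed to 1.48 with 3 markers, and the cause was not tested. Of 682 list medians, 622 moved by less than 0.5 and 6 reversed, all in comparisons with the 58232 UMIs of WT homeostasis members and with genes at 0 set to the floor: recruited genes at 3dpMI over homeostasis in WT hearts (-0.89 with 1000 UMIs, -0.41 with 3 markers, -0.38 without F13a1), proliferation there (-0.35 with 3 markers) and iron and haem handling (-0.43 there and -0.33 in Q150X over WT at homeostasis, both with 1000 UMIs). Depth limits the WT homeostasis members most: a gene without UMIs there may reach 63.3 CPM.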
